A study of Mus musculus with 4 samples.

Results

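Pgam2 and 8 genes listed with it (Gsn, Tuba8, Snap47, Cpne2, Nrgn, Prkca, Igfbp7 and Clec12a) were followed through 2 single-cell experiments on mouse T-cell progenitors. They are 9 of the 31053 genes counted in each experiment, and were picked by symbol because their levels were high in the cells of hashtags 3 and 4 of experiment 1. A hashtag is an antibody with a DNA oligo, and cells stained with it can be traced to their culture after pooling. Whether the 9 genes also went together from cell to cell, and in experiment 2, was not used to pick them.

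The cells came from bone marrow of Bcl2 transgenic mice aged 8 to 10 weeks, so every culture carried the transgene, which prolongs survival. Progenitors were grown on OP9-Dll1, a stromal cell line that displays the Notch ligand Dll1, with IL-7 and with Flt3 ligand, 10 ng/ml of either. Retroviral vectors were added on day 2. In the overexpression arm, MSCV-Runx1-mCherry was set against MSCV-empty-mCherry, with harvests 2 and 4 days after infection (days 4 and 6 of culture). In the knockout arm, Cas9;Bcl2 cells received E42-gRunx1-hNGFR and E42-gRunx3-mTurquoise, each with 3 guide pairs, or control guides, with harvests 3 and 6 days after infection (days 5 and 8). Lineage-negative, CD45-positive cells that carried the vector reporters were sorted, stained with hashtags and pooled in equal numbers. Cultures of 4 to 5 days went into experiment 1, and cultures of 4 to 8 days into experiment 2. No source used here ties a hashtag to a vector, guide or day, so the hashtags are treated below as 8 cultures of unknown condition in each experiment.

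In early thymus and in this culture, Notch signalling drives progenitors from a Kit-high stage, when several blood lineages are still open to them, through an Il2ra-positive stage to commitment, which is marked by Bcl11b. Runx proteins are transcription factors that bind DNA with their partner Cbfb and act throughout these steps. Pgam2 encodes the muscle form of phosphoglycerate mutase, a glycolytic enzyme, while most other tissues use Pgam1. The other genes belong to different processes. Gsn encodes gelsolin, which severs and caps actin filaments, and Tuba8 an alpha-tubulin. Snap47 encodes a SNARE-family protein of membrane fusion, Cpne2 a calcium-dependent membrane-binding copine, Nrgn the calmodulin-binding protein neurogranin, and Prkca protein kinase C alpha, which phosphorylates neurogranin. Igfbp7 encodes a secreted binding protein of insulin-like growth factors and Clec12a an inhibitory lectin receptor best known from myeloid cells.

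Each experiment was 1 mRNA library with 1 hashtag library, and the same 8 oligos were used in both. The oligos are the only names the hashtags have, and the results below turn on 3 of them:
hashtag 2: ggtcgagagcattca
hashtag 3: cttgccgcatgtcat
hashtag 4: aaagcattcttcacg
Kept cells had 500 genes or more and less than 10% of counts from mitochondria, and a cell was given the hashtag with the most counts where it had at least 50 counts and 3 times those of the second. In experiment 1, 8797 of 9332 kept cells (94.3%) had a hashtag, with 691 to 1291 cells and 14502385 to 38067298 unique molecular identifiers (UMIs, single counted transcripts) each. In experiment 2, 8335 of 10214 cells (81.6%) had one, with 855 to 1312 cells and 22272716 to 42684236 UMIs each. The experiments shared 39 cell barcodes. Levels are UMIs per 1000000 UMIs of a hashtag's cells (CPM), with exact 95% Poisson intervals. These cover counting error only: with no replicate of a condition there is no group test and no p-value below.

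The values that chose the genes are the levels in experiment 1, and they are given as a description. The measure is the lower of hashtags 3 and 4 over the highest other hashtag. Pgam2 stood first (44.3) and Gsn second (11.4) among the 8775 genes whose mean over the hashtags was 5 CPM or more, called measured below. Snap47 was in place 8 (3.33), Igfbp7 in 19 (2.63), Nrgn in 27 (2.42), Clec12a in 32 (2.24), Tuba8 in 41 (2.14), Prkca in 48 (1.99) and Cpne2 in 63 (1.81). Just as high and not in the list were Itgae (6.93), the integrin alpha-E chain, Polm (6.00), a DNA polymerase of end joining, Cdh1 (5.25), E-cadherin, Zbtb16 (3.93), the innate-lymphocyte factor PLZF, and Tspan33 (3.71). A ratio of at least 2 was reached by 0.536% of all measured genes and by 7 of the 9, which were chosen on these values. Both hashtags lay above the other 6 for 26.1% of all genes and for all 9. All 9 passed the minimum of 5 CPM, Pgam2 only through the hashtags in which it was high.

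The 9 genes do not sit together in the genome (RefSeq annotation of GRCm38.p6; the submitters' processing notes name GRCm38). Pgam2 spans chr11:5801637-5803796, minus strand. Snap47 spans chr11:59407141-59450041 and Prkca chr11:107933387-108343888, both on the minus strand and far from it. Tuba8 (chr6:121210734-121226098) and Clec12a (chr6:129349783-129365303) share chromosome 6, plus strand. Gsn is at chr2:35256359-35307902 and Cpne2 at chr8:94532674-94570529, plus strand. Nrgn is at chr9:37544493-37552745 and Igfbp7 at chr5:77349240-77408045, minus strand, where the end of Igfbp7 overlaps Polr2b.

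RefSeq start-site windows, 250 bases before to 50 after a start, were found for all 9 genes, 11 windows in all, with 3 for Gsn. The letters TGTGGT or TGCGGT, both known as Runx motifs, were searched on both strands (ACCACA and ACCGCA on the other strand). Of 32851 windows of 300 bases, 16.8% held the first, 6.45% the second and 22.4% either. Among the 11 windows, 4 held the first, 3 the second and 6 either: those of Gsn (all 3), Tuba8, Snap47 and Clec12a. Those of Pgam2, Cpne2, Nrgn, Prkca and Igfbp7 held neither. The 250 bases before the start are shown for Pgam2, which led the list and has no match, and for the genes with 1 window and a match, which is in capitals:
Pgam2, chr11:5803797-5804046, minus strand: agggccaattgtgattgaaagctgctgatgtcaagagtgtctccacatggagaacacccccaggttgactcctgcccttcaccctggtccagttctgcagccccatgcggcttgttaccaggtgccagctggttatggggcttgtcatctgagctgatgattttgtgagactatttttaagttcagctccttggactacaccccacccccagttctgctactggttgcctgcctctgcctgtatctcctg
Snap47, chr11:59450035-59450284, minus strand: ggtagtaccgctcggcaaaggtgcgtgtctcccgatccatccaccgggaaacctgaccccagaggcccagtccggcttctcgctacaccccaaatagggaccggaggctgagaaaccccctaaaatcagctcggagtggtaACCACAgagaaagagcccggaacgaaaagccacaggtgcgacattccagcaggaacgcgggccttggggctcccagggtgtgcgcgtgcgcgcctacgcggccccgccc
Tuba8, chr6:121210484-121210733, plus strand: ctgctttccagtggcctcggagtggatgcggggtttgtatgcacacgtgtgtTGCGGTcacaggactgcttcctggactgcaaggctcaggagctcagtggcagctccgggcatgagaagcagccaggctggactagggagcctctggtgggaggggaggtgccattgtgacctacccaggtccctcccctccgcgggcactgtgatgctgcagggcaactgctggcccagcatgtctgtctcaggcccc
Clec12a, chr6:129349994-129350243, plus strand: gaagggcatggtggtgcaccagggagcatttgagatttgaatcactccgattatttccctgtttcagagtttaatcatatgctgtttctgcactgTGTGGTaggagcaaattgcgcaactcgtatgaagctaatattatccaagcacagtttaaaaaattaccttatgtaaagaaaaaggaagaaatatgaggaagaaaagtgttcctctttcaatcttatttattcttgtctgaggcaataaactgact
The match begins at position -109 of Snap47, -198 of Tuba8 and -155 of Clec12a, counted from the start. A match describes letters in a window and is neither a site nor a cause.

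Pgam2 was close to absent from most cultures and high in a pair of them in each experiment. In experiment 1 its level in hashtags 1 to 8 was 0.919, 0.901, 199.6, 224, 2.83, 4.50, 1.08 and 1.03 CPM. The highest hashtag was 248-fold above the lowest (95% interval 177 to 361), and 421-fold with hashtags called by HTODemux, another calling method. In experiment 2 the levels were 2.22, 317.5, 9.91, 480.5, 4.58, 2.62, 4.08 and 3.73 CPM, a 217-fold range (173 to 275) that came to 143-fold without hashtag 4, 582-fold with HTODemux and 353-fold with cells thinned to 10000 UMIs. Hashtags 2 and 4 were the high ones here, and hashtag 3 came next, 32.0-fold below hashtag 2 (29.1 to 35.4). The high pair of each experiment is named from these same levels, so its place above the other 6 hashtags is a description.

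Gsn, the actin-severing gelsolin, had the second widest range. Its levels in experiment 1 were 11.2, 13.0, 195.2, 185, 16.3, 13.5, 9.10 and 6.83 CPM. In experiment 2 they were 40.4, 328, 25.8, 191, 58.8, 48.5, 19.8 and 33.9 CPM. The range of experiment 2 was 16.5-fold (15.1 to 18.2), and 9.65-fold without hashtag 2, which was far above hashtag 4. Pgam2 and Gsn thus put the 2 high hashtags of experiment 2 in opposite order.
Tuba8, the tubulin, was at 19.4, 17.3, 60.3, 67.1, 28.2, 25.5, 14.8 and 14.6 CPM in experiment 1 and at 13.3, 58.8, 23.8, 54.8, 20.6, 8.83, 28.8 and 12.7 CPM in experiment 2. The intervals of hashtags 2 and 4 overlapped in experiment 2, where the range was 6.66-fold (5.80 to 7.66).

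Among the genes of membrane fusion and calcium signalling, Nrgn was the most abundant of the 9. Its levels were 202, 181, 681, 705, 281, 251, 136 and 127 CPM in experiment 1 and 159.9, 622, 183, 634, 168, 64.2, 238 and 121 CPM in experiment 2. The range of experiment 2 was 9.88-fold (9.40 to 10.4), and 5.22-fold without hashtag 6, its lowest. Snap47 was at 34.4, 27.0, 137, 144, 40.9, 41.2, 24.1 and 18.6 CPM in experiment 1. In experiment 2 it was at 18.6, 118, 44.2, 119, 26.8, 16.1, 39.0 and 25.5 CPM, a 7.37-fold range (6.66 to 8.17). For both Nrgn and Snap47 the intervals of hashtags 2 and 4 overlapped in experiment 2.
Cpne2 and Prkca were also high in hashtag 7 of experiment 2. Cpne2 was at 21.6, 20.4, 86.1, 90.1, 47.5, 39.2, 11.4 and 13.4 CPM in experiment 1 and at 17.9, 62.7, 27.2, 122, 28.6, 12.9, 69.9 and 18.8 CPM in experiment 2. Hashtag 7 of experiment 2 lay above hashtag 2 for Cpne2, by 1.12-fold (1.04 to 1.19). Prkca, the kinase, was at 13.3, 11.1, 47.9, 48.9, 24.03, 18.0, 20.3 and 16.5 CPM in experiment 1 and at 9.54, 47.2, 17.2, 72.1, 14.5, 11.8, 46.8 and 20.6 CPM in experiment 2. Hashtags 2 and 7 did not differ beyond counting error for Prkca (1.01-fold, 0.929 to 1.09). Without hashtag 4 the experiment 2 range was 5.43-fold for Cpne2, against 9.48-fold with it, and 4.95-fold against 7.57-fold for Prkca.

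The genes of the secreted and the surface protein were also highest in these pairs of hashtags. Igfbp7 was at 8.33, 7.86, 50.7, 48.9, 18.6, 15.7, 4.01 and 6.27 CPM in experiment 1, a 12.6-fold range (10.2 to 15.8) that was 8.07-fold without hashtag 7. In experiment 2 it was at 15.7, 57.7, 14.2, 66.2, 23.5, 15.8, 21.7 and 9.11 CPM, a 7.27-fold range (6.28 to 8.44) that was 4.68-fold without hashtag 8. Clec12a, the myeloid lectin receptor, was at 26.6, 31.5, 114, 106, 47.3, 44.6, 11.3 and 15.0 CPM in experiment 1. Its levels in experiment 2 were 44.4, 139, 38.6, 165, 59.6, 48.9, 67.6 and 42.1 CPM, the narrowest range of the 9 there at 4.28-fold (4.05 to 4.54).

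**Figure D1:**
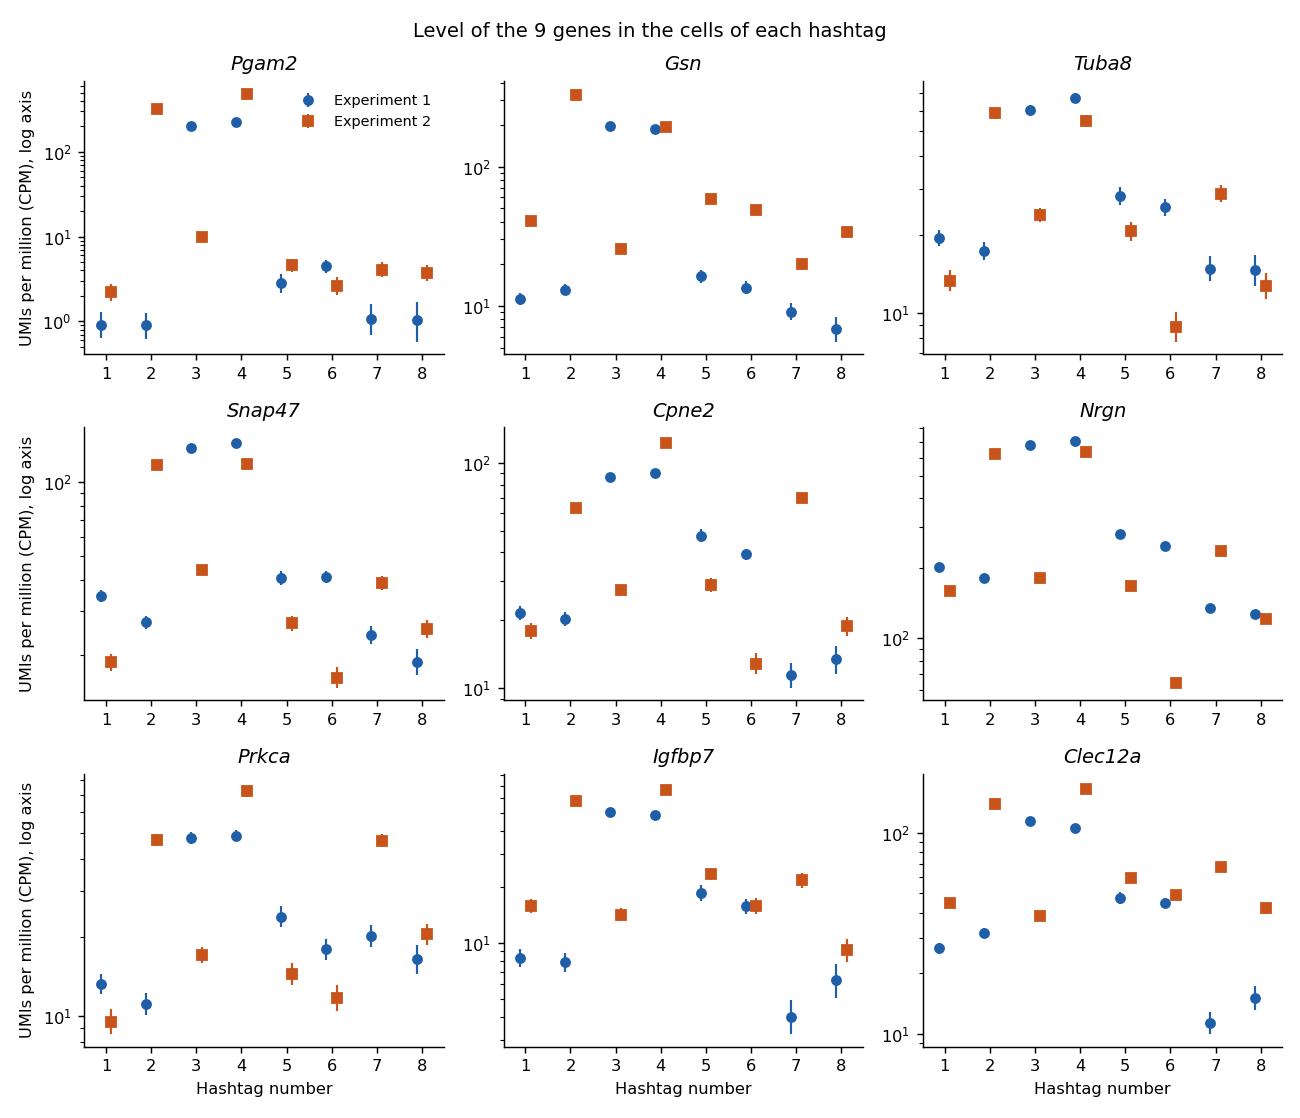
Level of each of the 9 genes (CPM, log axis) in the cells of hashtags 1 to 8, with circles for experiment 1, squares for experiment 2 and exact 95% Poisson intervals as bars. Hashtags 3 and 4 stand highest in experiment 1 and hashtags 2 and 4 in experiment 2, except for Cpne2, where hashtag 7 of experiment 2 (69.9 CPM) lies above hashtag 2 (62.7 CPM).

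In experiment 2 the range from lowest to highest hashtag was 4-fold or more for all 9 genes, against 6.6% of 8784 measured genes. A 2-fold range was reached by 17.4% of all genes. In experiment 1, where these values were used to choose them, all 9 passed both limits, against 3.02% and 10.8% of all genes. The median range was 7.57-fold over the 9 and 1.38-fold over all genes in experiment 2. Pgam2 passed the minimum of 5 CPM there only through hashtags 2 and 4, so its own place in these counts is a description. In no case did hashtags 3 and 4 both lie above the other 6 in experiment 2 (0 of 9, a count near the 3.23% of all genes). Hashtags 2 and 4 both lay above the other 6 for 8 of 9, against 19.2% of all genes. This pair was looked at after the order of Pgam2 in experiment 2 was seen, so the place of Pgam2 among the 8 was fixed. Of the other genes, only Cpne2 did not have both hashtags on top. Hashtag 4 was among the 2 highest for all 9 genes in both experiments. In experiment 1 the choice of the genes fixed this, and the share of all genes was not computed for either experiment. Among the other hashtags of experiment 2 the order differed between genes. The highest of them was hashtag 3 for Pgam2 and Snap47, hashtag 5 for Gsn and Igfbp7, and hashtag 7 for the remaining 5 genes. Of the 7 neighbouring steps in each order, 4 had overlapping intervals for Pgam2 and none for Gsn in experiment 2, and 3 and 5 in experiment 1.

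Runx1 transcripts were lowest in the same cultures. In experiment 1 the Runx1 level was 76.9, 79.4, 38.2, 39.3, 96.5, 85.8, 241 and 209.97 CPM, with its lowest values in hashtags 3 and 4. In experiment 2 it was 57.5, 33.7, 52.9, 39.5, 58.8, 102, 86.7 and 121 CPM, lowest in hashtags 2 and 4. Gene counts do not separate vector from mouse Runx1 transcripts, and an edited gene can still be transcribed, so these levels assign no culture to an arm. Runx3 was also lowest there, at 115 and 118 CPM against 143 to 181 CPM in the other hashtags of experiment 1, and at 95.3 and 74.7 CPM against 117 to 145 CPM in experiment 2. Cbfb, their common partner, varied 1.16-fold and 1.201-fold. The share of all genes lowest in these pairs of hashtags was not computed. The glycolysis genes Pfkl and Pgk1 were lowest in the same pairs in both experiments. Pfkl was at 35.1 and 34.5 CPM in experiment 1 and at 38.8 and 38.2 CPM in experiment 2. Pgk1 was at 330 CPM in both hashtags of experiment 1 and at 363 and 374 CPM in experiment 2.

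The closest relatives of the 9 genes, a list of 40 family members, were set beside them. Of the 22 measured in experiment 1, 1 ranged at least 4-fold (Capg, an actin-capping relative of Gsn), against 3.02% of all genes. In experiment 2, 5 of 23 did (Capg, Scin, Prkcq, Clec4a2 and Clec2i), against 6.6%. Hashtags 3 and 4 were both above the rest in experiment 1 for 9 of 22, against 26.1% of all genes. Hashtags 2 and 4 were so in experiment 2 for 2 of 23 (Tuba1c and Calm3), against 19.2%. Pgam1, the widespread mutase, was at 375 to 558 CPM in experiment 1 and 369 to 634 CPM in experiment 2, a 1.49-fold and 1.72-fold range. Of 21 glycolysis genes, 18 were measured (Aldoa has 2 rows of the same symbol and was left out). Their median range was 1.46-fold and 1.73-fold, against 1.31-fold and 1.38-fold over all genes. Ldhb, a lactate dehydrogenase subunit, was the 1 of 18 with hashtags 3 and 4 above the rest in experiment 1 (31.2 and 30.3 CPM, others 7.12 to 12.04). Ldhb (44.2 and 59.5 CPM, others 10.1 to 30.9) and the glucose transporter Slc2a3 (9.88 and 11.5 CPM, others 4.04 to 6.24) were so in hashtags 2 and 4 of experiment 2.
Of 14 stage genes of the T lineage, 13 were measured. A 4-fold range was reached by 3 in experiment 1, against 3.02% of all genes, and by 6 in experiment 2, against 6.6%. Hashtags 3 and 4 were on top for 7 of 13 in experiment 1, against 26.1% of all genes. Hashtags 2 and 4 were so for 3 of 13 in experiment 2 (Kit, Tcf7 and Gata3), near the 19.2% of all genes.

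Pgam2 UMIs were unevenly spread over the cells of a culture. Each cell was thinned to 10000 UMIs, which left out 573 shallower cells of experiment 1 and 589 of experiment 2. At least 1 Pgam2 UMI was then found in 42.4% of hashtag 3 cells (95% exact interval 39.5 to 45.3) and 41.7% of hashtag 4 cells (38.9 to 44.6) of experiment 1. In the other 6 hashtags the share was 0.808% to 3.01%. For experiment 2 it was 43.1% in hashtag 2 (39.9 to 46.2) and 50.2% in hashtag 4 (47.0 to 53.3), and 1.10% to 3.96% elsewhere. Unthinned shares were 50.5% and 52.3%, and 51.6% and 55.6%, in these 4 hashtags. Median UMIs per cell were 23994 and 24921 in hashtags 3 and 4 of experiment 1, and 18057.5 to 29606 in its other hashtags. They were 25377 and 19543 in hashtags 2 and 4 of experiment 2, and 21907 to 31961 in its other hashtags. The part of depth in the unthinned shares was not tested. All cultures of an experiment shared 1 droplet run, so at the shares of the low hashtags free RNA or a wrong hashtag cannot be told apart from expression.

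The cells with Pgam2 differed widely in how much they held. The median was 0 UMIs in hashtags 3 and 4 of experiment 1, the 90th percentile 7 and 8, and the highest cell 34 and 47. In hashtags 2 and 4 of experiment 2 the 90th percentiles were 12 and 19, and the highest cells 58 and 134. Cells with at least 5 UMIs were 16.7% and 19.0% of hashtags 3 and 4 and held 77.4% and 81.6% of their Pgam2. In hashtags 2 and 4 of experiment 2 they were 23.3% and 33.4% and held 89.8% and 94.4%. The variance over the mean was 9.08 and 10.5 for Pgam2 in the high hashtags of experiment 1 and 15.3 and 20.3 in those of experiment 2. For Gsn it was 2.76 and 2.36, and 3.30 and 4.08. This measure rises with the mean. The means per cell were alike in hashtags 3 and 4 of experiment 1 (Pgam2 2.23 and 2.49 UMIs, Gsn 2.17 and 2.01 UMIs) and in hashtag 2 of experiment 2 (3.76 and 3.67 UMIs), but not in hashtag 4 (5.99 and 2.15 UMIs). Gsn was seen in 70.7% and 69.4%, and in 82.8% and 63.6%, of the same cells, and Nrgn in 94.9%, 95.8%, 90.2% and 87.3%.

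**Figure D2:**
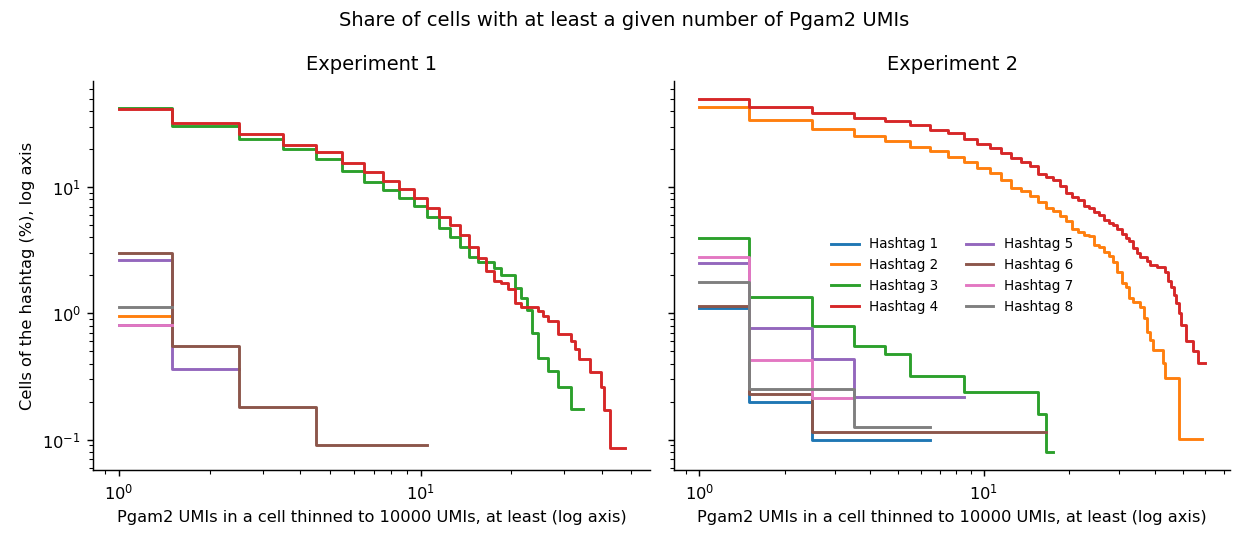
Share of the cells of each hashtag (%, log axis) that held at least a given number of Pgam2 UMIs (log axis) after thinning to 10000 UMIs, 1 line per hashtag. Hashtags 3 and 4 of experiment 1 start at 42.4% and 41.7%, hashtags 2 and 4 of experiment 2 at 43.1% and 50.2%, and all others below 5%.

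Cells with Pgam2 also held more of the other 8 genes. In hashtags 3 and 4 of experiment 1 they had a mean of 19.3 and 19.9 UMIs of the other 8 together, against 11.3 and 11.6 in cells without it, 1.71-fold in both. In hashtag 2 of experiment 2 the means were 21.4 and 12.2 UMIs (1.75-fold), and in hashtag 4 they were 22.3 and 9.45 UMIs (2.36-fold). Cells without a Pgam2 UMI in the high hashtags still held more of the other genes than cells of the low hashtags, whose means without Pgam2 were 2.24 to 5.08 UMIs in experiment 1 and 2.20 to 5.46 UMIs in experiment 2. For experiment 1 this comparison between hashtags is a description, since the genes were chosen for high levels in hashtags 3 and 4. Experiment 2 did not choose the genes, but its high pair was taken from the order of Pgam2.

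From cell to cell the correlations with Pgam2 were modest in size, and their rank among all genes differed between the 8 genes. Correlations are Pearson's on log2(UMIs + 1) across the cells of 1 hashtag; cells are not replicates and no p is given. In hashtag 3 of experiment 1, 7 of the 8 genes reached 0.1, against 3.27% of all genes, with Tuba8 (0.06) below. In hashtag 4, 8 of 8 did, against 3.23%. In experiment 2, 8 of 8 did in hashtag 2, against 4.4% of all genes, and 8 of 8 in hashtag 4, against 9.71%. Nrgn was the gene most correlated with Pgam2 of all in hashtags 3 and 4 of experiment 1 (0.40 in both) and hashtag 2 of experiment 2 (0.45), and stood in place 4 in hashtag 4 (0.50). Gsn was in places 3 and 4 of experiment 1 (0.35 and 0.34), and in 35 and 18 of experiment 2 (0.24 and 0.41). Cpne2 reached 0.48 (place 6) and Clec12a 0.47 (place 8) in hashtag 4 of experiment 2. In its hashtag 2 they were at 0.32 (place 12) and 0.16 (place 116). Tuba8 was in places 958 and 109 in hashtags 3 and 4 of experiment 1. It was in places 52 and 155 in hashtags 2 and 4 of experiment 2. Igfbp7 was in places 70 and 34, and in 165 and 162, of the same hashtags.
Averaged over all 8 hashtags the same correlations were smaller. Pgam2 was nearly absent from 6 of these hashtags, and its part in the smaller means was not tested. Nrgn alone reached a mean of 0.1 in experiment 1 (0.14), 1 of 8, against 0.0912% of all genes. In experiment 2, 6 of 8 did, against 0.478%: Nrgn (0.18), Cpne2 (0.16), Snap47 (0.14), Gsn (0.12), Clec12a (0.11) and Tuba8 (0.11). Prkca and Igfbp7 were at 0.0959 and 0.0877, just below it.

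Over the 36 pairs of the 9 genes, the mean correlation within hashtags reached 0.1 in 10 pairs of experiment 1 and 19 of experiment 2. These pairs had 8 in common, 80.0% of the first set and 42.1% of the second. No share over all pairs of measured genes was computed, so the pair counts here have no background beside them. Nrgn was in 7 of the 10 pairs of experiment 1 and in 5 of the 19 of experiment 2, where Pgam2 was in 6. The pair of Nrgn with Snap47 was the highest in both experiments (0.19 and 0.22). With the cells of all hashtags pooled, which adds the differences between cultures, 36 of 36 pairs passed in each experiment. Single hashtags differed: 29 and 31 of 36 pairs reached 0.1 in hashtags 3 and 4 of experiment 1, with medians of 0.19 and 0.20, and 2 to 13 pairs in the others. Experiment 2 had 27 and 35 pairs in hashtags 2 and 4, with medians of 0.16 and 0.27, and 3 to 17 in the others. Levels are lower in the other hashtags, and at few UMIs per cell a weak correlation shows nothing: thinned to 5000 UMIs, the counts of 10 and 19 pairs came to 3 and 9.
Both genes of a pair were found in the same cell more often than the shares in each hashtag give if unrelated, 1.02 to 1.32 times in all 36 pairs of experiment 1 and in 35 of 36 in experiment 2 (0.951 to 1.41 times). The exception was Gsn with Nrgn in experiment 2 (1823 cells, against 1917). Their correlation was 0.30 in hashtag 2 of that experiment, 0.29 in hashtag 4 and -0.28 in hashtag 5. How often pairs of other genes were found in the same cell was not computed.

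**Figure D3:**
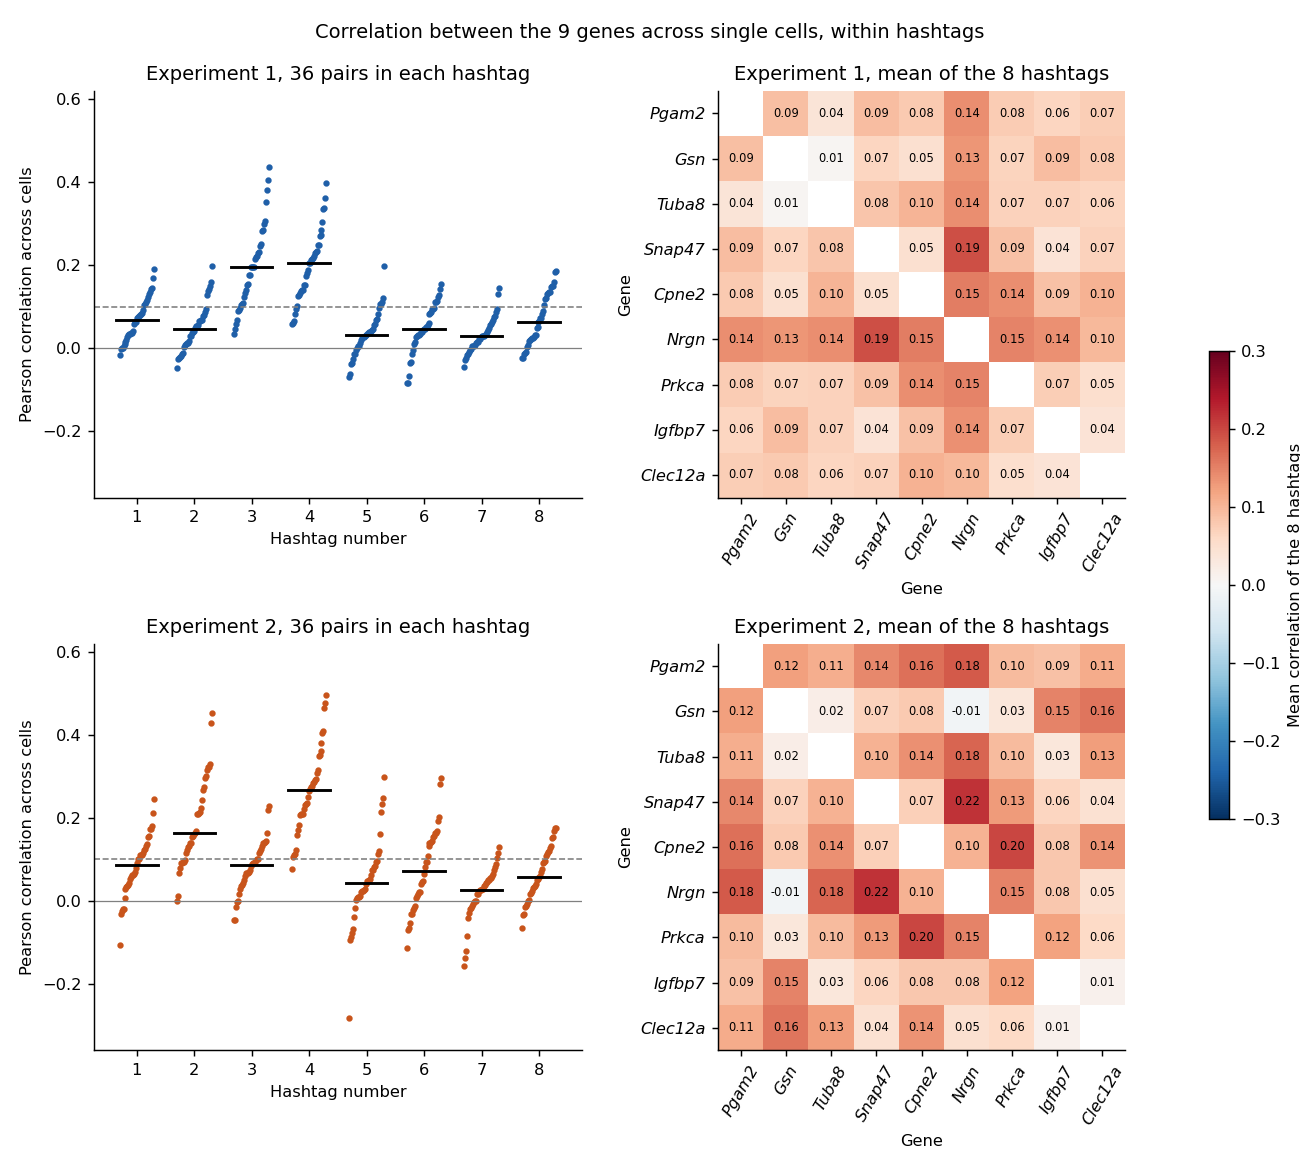
Pearson correlation of log2(UMIs + 1) across cells thinned to 10000 UMIs, for the 36 pairs of the 9 genes: left, each pair (dot) within each hashtag with the median as a black line and 0.1 as a dashed line; right, the mean of the 8 hashtags. Medians are highest in hashtags 3 and 4 of experiment 1 (0.19 and 0.20) and hashtags 2 and 4 of experiment 2 (0.16 and 0.27).

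Genes outside the list went with Pgam2 as closely. Per cell, Crip1, a small LIM-domain protein, and Gzma, the protease granzyme A, had the highest means of the genes outside the list in experiment 1 (0.15 and 0.15) and in experiment 2 (0.19 and 0.18). Next in experiment 1 were Fcer1g (0.12), Fam169b (0.12), Cd3g (0.11), Fyb (0.11) and Tmem121 (0.11), with Trbc1 just below 0.1. In experiment 2 they were Tmem121 (0.15), Itgae (0.15), Cd24a (0.15), Tcf7 (0.15), Fgf3 (0.14) and Fam169b (0.14).
Over the 8 hashtags, likeness was the Pearson correlation of log2(CPM + 1) with Pgam2. In experiment 2 it was 0.78 (Cpne2) to 0.95 (Snap47) for the 8 genes, of which 3 reached 0.9, against 3.47% of all genes. In experiment 1, where the choice used these levels, it was 0.871 to 0.985, and 6 of 8 reached 0.9, against 6.05%. Among the most alike outside the list were Fut7, Anxa2, Riok1, Mknk1, Atp6v0d1, Ccnb2 and Naxd in experiment 1 (0.989 to 0.997). Their own ranges were only 1.38-fold to 2.40-fold, since this measure does not read size. In experiment 2 they were Atad2b, Polm, Diaph1, Atg2a, Dmwd, Cep290, Sept11 and Rexo1 (0.98 to 0.99), with ranges of 1.21-fold to 20.5-fold, the widest being Polm. Of 8471 genes measured in both experiments, 137 reached 0.9 in both, a count that includes Pgam2 itself. Snap47 and Igfbp7 were among them, Igfbp7 only just, at 0.90001 in experiment 2.

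Correlations with genes of T-lineage progression differed among the 9 per cell, as means within hashtags. Cpne2, Prkca and Nrgn had positive values with Il2ra, the CD25 chain (0.24, 0.20 and 0.21 in experiment 1; 0.21, 0.22 and 0.16 in experiment 2), and negative ones with Spi1, the myeloid factor PU.1 (-0.19, -0.18 and -0.19; -0.18, -0.22 and -0.22). With Tcf7, an early T factor, Nrgn and Snap47 had the highest values (0.24 and 0.18; 0.30 and 0.22). Prkca, Cpne2 and Tuba8 were at 0.15, 0.14 and 0.14 in experiment 1 and at 0.19, 0.16 and 0.14 in experiment 2. Gsn did the reverse in experiment 2, with -0.18 for Il2ra and 0.18 for Spi1, and -0.08 and 0.03 in experiment 1. Clec12a was at 0.10 with Spi1 in experiment 2 and near 0 in experiment 1. For Pgam2 the means over all 8 hashtags lay between -0.08 and 0.15 for the 14 stage genes, but in its high hashtags some values were as large as those with the other 8 genes. In hashtags 3 and 4 of experiment 1, Pgam2 was at 0.33 and 0.35 with Cd3g, at 0.26 and 0.20 with Gata3 and at 0.24 and 0.20 with Bcl11b. In hashtags 2 and 4 of experiment 2 it was at 0.33 and 0.46 with Tcf7, at 0.27 and 0.45 with Bcl11b, at 0.40 and 0.33 with Cd3g and at 0.27 and 0.38 with Gata3. Over all 8 hashtags Runx1 transcripts showed 0.01 and -0.01 with Pgam2, and Runx3 0.02 and 0.02; in hashtag 4 of experiment 2, Runx3 was at -0.17.

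Markers of other cell types moved with part of these levels. The summed level of 9 stromal genes, collagens among them, ran from 1.44 to 64.5 CPM over the hashtags of experiment 1 and from 148 to 758 CPM in experiment 2, highest in hashtag 2, where 6 of the 9 peaked; none was at 0 throughout. Stromal cells should have been removed by the CD45 gate. Cells with at least 0.1% of their UMIs from this list numbered 0 to 3 per hashtag in experiment 1 and 7 to 48 in experiment 2. They held 50.7% of Gsn and 75.4% of Igfbp7 UMIs of hashtag 6 in experiment 2, but 7.18% and 8.13% of Gsn and 19.8% and 12.3% of Igfbp7 in hashtags 2 and 4. For Pgam2 it was 1.95% and 0.478% in those hashtags. Without these cells the Igfbp7 range of experiment 2 widened from 7.27-fold to 14.2-fold.
Of 10 granulocyte or monocyte genes, the sum was 243 to 1601 CPM in experiment 1 and 200.1 to 11740 CPM in experiment 2, highest in hashtag 6; no gene was at 0 throughout. Cells with 0.1% of UMIs from it held 77.4% of Clec12a and 44.1% of Tuba8 in hashtag 6 of experiment 2. Without them the ranges of experiment 2 were 11.7-fold against 4.28-fold for Clec12a and 11.0-fold against 6.66-fold for Tuba8. Pgam2 was sparse in such cells even in its high cultures. In hashtags 3 and 4 of experiment 1 it was at 3.78 and 6.41 CPM in them, and 211 and 233 CPM in the rest. In hashtags 2 and 4 of experiment 2 it was at 7.15 and 53.6 CPM, and 363 and 512 CPM in the rest.
Other lists moved too. In hashtags 3 and 4 of experiment 1, 6 innate lymphoid genes summed to 479 and 489 CPM (others 291 to 369 CPM). Of these, 0 peaked in hashtag 3 and 2 in hashtag 4. The sum of 6 erythroid or megakaryocyte genes was 93.1 CPM in both (others 28.4 to 67.9 CPM), with 0 and 1 peaking there. The latter were at 62.8 and 72.8 CPM in hashtags 2 and 4 of experiment 2 (others 7.26 to 49.6 CPM), with 1 and 2 peaking there. The 6 dendritic genes summed to 142 to 889 CPM in experiment 1, highest in hashtag 6. They summed to 265 to 2106 CPM in experiment 2, highest in hashtag 5. In that experiment the 6 innate lymphoid genes all peaked in hashtag 4 (sum 754 CPM, others 287 to 488 CPM), as did the sum of 6 mast or basophil genes, of which 4 peaked there (837 CPM, others 115 to 355 CPM). Their part in the levels of the 9 genes was not tested. The early T progenitor genes, which define the labelled cell type, were at 505 to 1076 CPM and 284 to 1335 CPM, with none at 0.

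**Figure D4:**
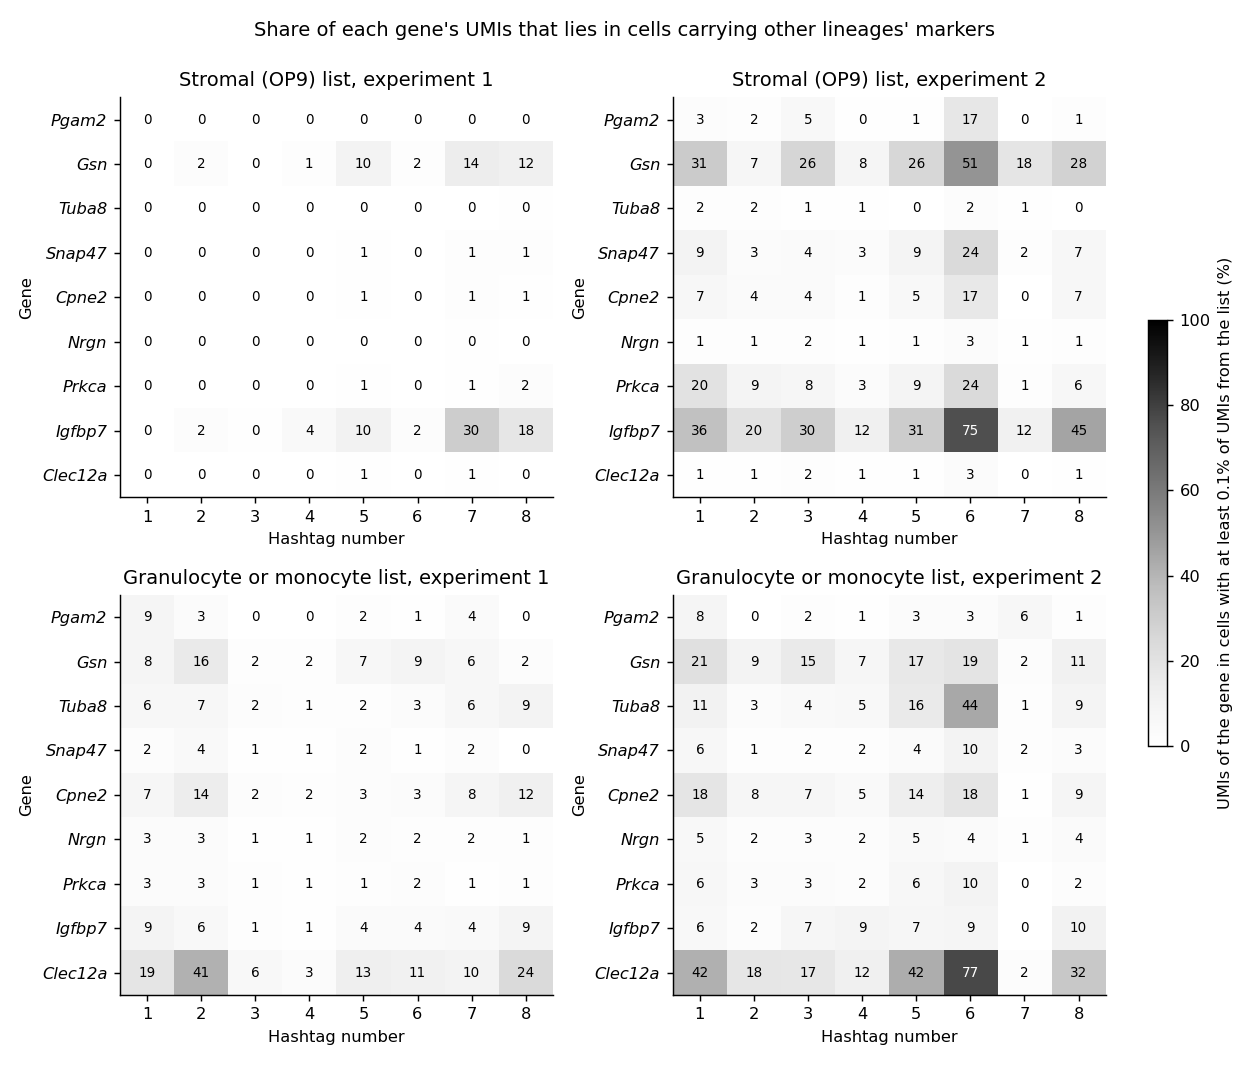
Share of each gene's UMIs (%) found in cells with at least 0.1% of their UMIs from the stromal list (top) or the granulocyte or monocyte list (bottom), by hashtag, darker for more. The largest shares are Clec12a (77.4%) and Igfbp7 (75.4%) in hashtag 6 of experiment 2, while Pgam2 stays at or below 1.95% in the hashtags where it is high.

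One neighbour of Pgam2 had its pattern. Genes within 100000 bases of the 9 were looked at after Polm had appeared among the most alike. Polm, a DNA polymerase 24064 bases from Pgam2, was at 0.998, 1.39, 20.5, 21.8, 2.64, 3.19, 3.42 and 1.86 CPM in experiment 1. Its levels in experiment 2 were 0.904, 16.7, 2.51, 18.5, 1.68, 1.497, 2.04 and 2.33 CPM, a 20.5-fold range. Dbnl, an actin-binding adaptor 657 bases from Pgam2, ranged 1.56-fold and 1.61-fold, with the same hashtags on top. Pold2, 68384 bases from Pgam2, ranged 1.37-fold and 1.36-fold.
Near Tuba8, the transporter gene Slc6a13 (74190 bases away) was at 53.6 and 58.8 CPM in hashtags 3 and 4 of experiment 1, others 18.2 to 32.7, and at 56.9 and 39.9 CPM in hashtags 2 and 4 of experiment 2, others 13.1 to 26.0. Of 22 measured neighbours in experiment 1, 11 had hashtags 3 and 4 above the rest, against 26.1% of all genes. A range of 4-fold was reached by 1 (Polm), against 3.02% of all genes. Of 23 in experiment 2, 13 had hashtags 2 and 4 above the rest, against 19.2%. There 5 ranged 4-fold (Polm, Usp18, Slc6a13, Nlrc5 and Aebp1), against 6.6% of all genes. Nlrc5 and Aebp1 did not have hashtags 2 and 4 above the rest. Whether neighbours share a pattern more often than other genes was not tested.

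**Figure D5:**
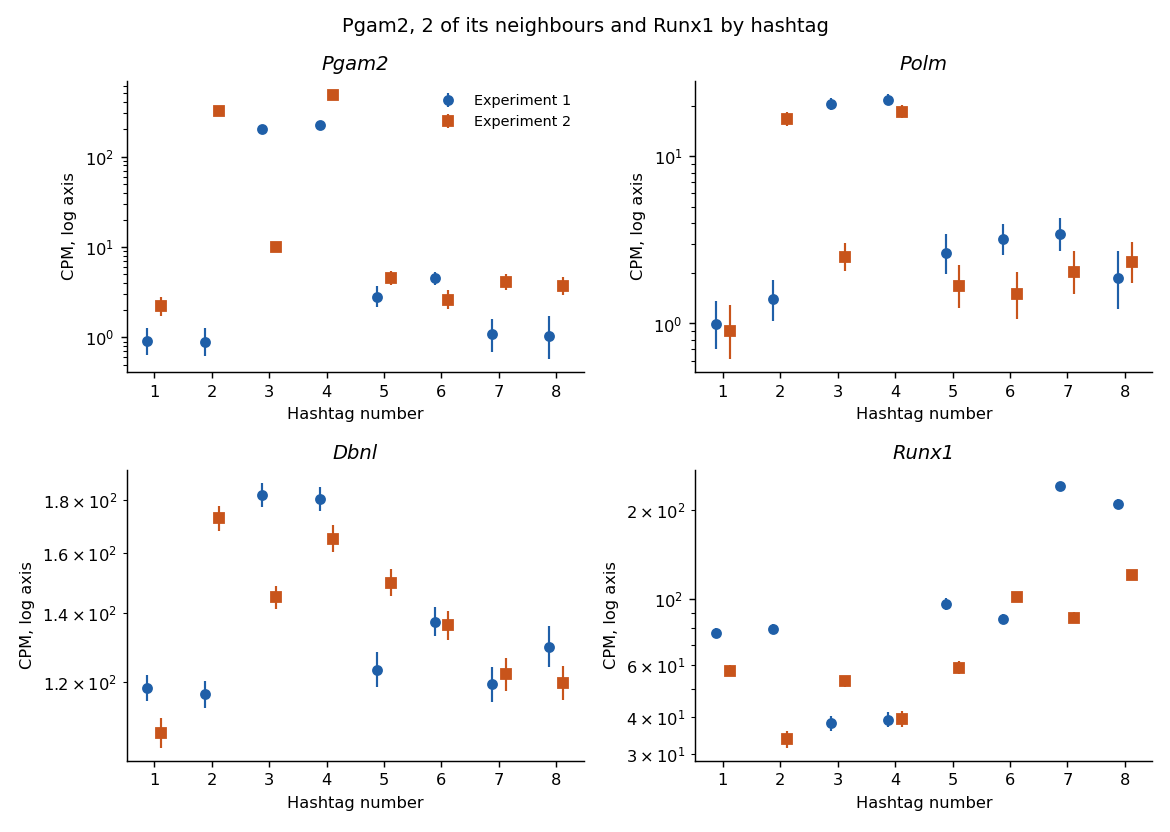
Level (CPM, log axis) of Pgam2, its neighbours Polm and Dbnl, and Runx1 in hashtags 1 to 8 of experiment 1 (circles) and experiment 2 (squares), with exact 95% Poisson intervals. Polm peaks in the hashtags of high Pgam2 (21.8 and 18.5 CPM), and Runx1 is lowest there (38.2 and 33.7 CPM).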

How the data were processed

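The authors deposited raw UMI counts per gene and cell and counts of 8 hashtag oligos per barcode. Cell Ranger 3.0.0 and GRCm38 are named in the submitters' processing notes; other steps are not given in the sources used here. The deposited counts were summed over the cells of each hashtag and scaled to 1000000 UMIs (CPM). Hashtags were numbered in file order. No test was run: the named hashtags carry no condition. Ratios have exact conditional 95% intervals and shares Clopper-Pearson intervals, for counting error only. Cells were thinned once to 10000 UMIs with a fixed seed before correlations. Doublets were removed only as far as the hashtag rule does. TMM (edgeR) and DESeq2 size factors, HTODemux and other cell filters were alternatives. The genes named were the 9, their relatives, glycolysis, Runx and stage genes, and the genes most like Pgam2, of which 1 is not reported here. The members and lists were chosen with earlier results of these data known. Python (numpy 2.4.6, scipy 1.17.1) was used, with steps tested on simulated data.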

Additional observations from a re-analysis of the deposited data

How the results depend on the processing

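Thinning to 5000 UMIs took the member pairs that go together from 10 to 3 in experiment 1 and from 19 to 9 in experiment 2; fewer UMIs per cell are this setting's own construction. Every other count stayed within 1.5 times its value under each alternative run. Leaving out 1 hashtag at a time gave 8 to 14 pairs in experiment 1 and 13 to 22 in experiment 2, 9 genes at a 2-fold range throughout, and 8 or 9 at a 4-fold range in both experiments. The 8 genes with hashtags 2 and 4 on top in experiment 2 (a pair picked, like the 4-fold limit and the neighbours, with the data in view) came to 7 with TMM, with DESeq2 size factors, with the stricter cell filter and without stromal-marker cells. HTODemux gave a Pgam2 range of 421-fold in experiment 1 and 582-fold in experiment 2, and thinning to 10000 UMIs 353-fold in experiment 2; the cause was not tested. Of 324 ranges recomputed for single genes, 13 moved by over 1.5 times, and the lowest was 3.60-fold. No paired analysis was possible because the labels give hashtags no condition or replicate number. With 1 library per experiment and no known replicate, the spread between cultures of a condition was not measured. Depth limits the pair counts, as the thinning shows, and the levels of Pgam2 and Polm in the low hashtags.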

Other observations

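Over all hashtags of an experiment together, Pgam2 was at 59.8 CPM in experiment 1 and 96.5 CPM in experiment 2, and Gsn at 61.1 and 90.2 CPM. Nrgn was at 336 and 268 CPM, and Cpne2 at 42.9 CPM in both. The experiments differ in days of culture and were 1 library each, so these differences have no replicate check.

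The number of the 9 genes seen in a cell differed by culture. After thinning to 10000 UMIs the median cell held 5 of the 9 in hashtags 3 and 4 of experiment 1 and in hashtags 2 and 4 of experiment 2, and 1 to 3 in the other hashtags. All 9 were seen together in 7 and 18 cells of hashtags 3 and 4 of experiment 1, in 19 and 34 cells of hashtags 2 and 4 of experiment 2, and in 0 cells of any other hashtag. The genes were chosen for high levels in hashtags 3 and 4 of experiment 1, so its counts are a description. Pgam2 was seen in at most 3.01% and 3.96% of cells in any other hashtag of experiments 1 and 2, which limits cells with all 9 there. The number of such cells if the genes were unrelated was not computed.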
